A study of Mus musculus with 24 samples.

Results

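The 40 genes described here act when a cell copies its DNA (S phase) or divides (mitosis). They were listed by symbol, 17 of S phase and 23 of mitosis, and all 40 were found among the 53946 genes of the deposited count table. They were measured in polyA RNA of the ventral otocyst, where the mouse cochlea forms, at embryonic day 14.5 on a C57BL/6J x 129X1/SvJ background. Every embryo expressed L10a-eGFP, a ribosomal protein with a fluorescent tag, in the Fgf20-Cre lineage. TRAP (translating ribosome affinity purification) recovers RNA bound to tagged ribosomes, and pre-TRAP is read here as RNA from before that step, which the protocol text does not spell out. The design holds 8 TRAP libraries of Fgf20-/- embryos (TRAP mut), 8 TRAP libraries of Fgf20+/- embryos (TRAP het), 4 pre-TRAP libraries of Fgf20-/- embryos (pre-TRAP mut) and 4 of Fgf20+/- embryos (pre-TRAP het). The embryos that mut is compared with thus carry 1 mutant Fgf20 allele and the Cre lineage as well. Tissue of 3 to 7 embryos was pooled for a library. Every group has equal numbers of libraries from experiment 1 and experiment 2, which the labels name as batches.

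A dividing cell passes a commitment step at which cyclin E and E2F1 switch on the enzymes of DNA synthesis. It then copies its chromosomes with the MCM helicase, the sliding clamp PCNA and a fresh supply of nucleotides. After replication, cyclin B with CDK1 drives entry into mitosis, kinesins and kinases build the spindle, a checkpoint holds the cell until every chromosome is attached, and CDC20 and UBE2C let the cell leave mitosis through the anaphase-promoting complex. In the mouse cochlea, cells of the prosensory domain, the source of sensory hair cells, leave the cell cycle around this stage, while neighbouring epithelium and mesenchyme go on dividing. FGF20 is a secreted ligand that signals to the prosensory domain.

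Promoters of these genes are known to carry short recurrent words. A CHR element is read by the DREAM and MuvB complexes in mitotic genes, E2F sites are read by E2F factors in S-phase genes, and CCAAT boxes are bound by NF-Y. The windows below were chosen to show these words in genes of both phases whose levels are given further on. They are the 120 bases before the annotated start, from the RefSeq promoter table of build GRCm38.p6, and each is printed in the direction of transcription. Capitals mark TTTGAA (CHR), TTCCCGC or TTGGCGC (E2F) and CCAAT, or their reverse complements.
Cdc20 (chr4:118437344-118437463, minus strand): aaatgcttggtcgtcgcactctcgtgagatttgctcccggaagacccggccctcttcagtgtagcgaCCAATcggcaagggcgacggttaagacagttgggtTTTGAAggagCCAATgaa
Cdk1 (chr10:69352913-69353032, minus strand): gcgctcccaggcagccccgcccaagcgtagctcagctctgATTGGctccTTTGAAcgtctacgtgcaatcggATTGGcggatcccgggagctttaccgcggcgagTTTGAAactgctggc
Kif11 (chr19:37376262-37376381, plus strand): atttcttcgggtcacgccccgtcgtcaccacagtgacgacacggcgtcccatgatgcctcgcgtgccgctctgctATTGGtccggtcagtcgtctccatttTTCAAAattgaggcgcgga
Ube2c (chr2:164769809-164769928, plus strand): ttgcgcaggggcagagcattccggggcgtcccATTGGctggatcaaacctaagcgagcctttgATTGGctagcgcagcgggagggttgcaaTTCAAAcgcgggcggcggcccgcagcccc
Top2a (chr11:99024190-99024309, minus strand): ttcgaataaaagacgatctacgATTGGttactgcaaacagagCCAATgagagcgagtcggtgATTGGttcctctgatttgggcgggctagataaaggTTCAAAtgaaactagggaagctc
Mcm6 (chr1:128359706-128359825, minus strand): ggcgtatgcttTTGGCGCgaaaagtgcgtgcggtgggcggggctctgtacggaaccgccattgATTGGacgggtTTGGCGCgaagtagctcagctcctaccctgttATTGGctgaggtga
Rrm1 (chr7:102441575-102441694, plus strand): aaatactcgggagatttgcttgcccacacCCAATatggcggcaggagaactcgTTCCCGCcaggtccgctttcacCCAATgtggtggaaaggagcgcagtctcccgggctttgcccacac
Uhrf1 (chr17:56303217-56303336, plus strand): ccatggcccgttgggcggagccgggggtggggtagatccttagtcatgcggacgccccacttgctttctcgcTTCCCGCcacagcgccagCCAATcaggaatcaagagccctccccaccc

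The table held 33 of the 40 genes, with 250 bases before and 50 after each start. On either strand, the CHR word was present in 14 of 19 mitotic genes (73.7%) and in 1 of 14 S-phase genes (7.14%), Mcm2. It was present in 20.2% of the 27025 genes of the table and in 17.9% of its 32851 promoters. The E2F words were present in 3 of 19 mitotic genes (15.8%), which were Cdk1, Ccnb1 and Mki67, and in 8 of 14 S-phase genes (57.1%), against 7.79% of all genes and 6.81% of all promoters. The CCAAT word was present in 17 of 19 mitotic genes (89.5%) and 9 of 14 S-phase genes (64.3%), against 41.1% of all genes and 37.4% of all promoters. The TTGGCGC word read on the other strand can share bases with CCAAT, and did so in 2 genes, Ccnb1 and Mcm7. Cdk1 and Mki67 held both CHR and E2F words, and 9 of the 33 genes held neither. Genes without an entry in the table were Kif20a, Aurkb, Gins2, Mcm4, Tpx2, Ccna2 and Ccne2. A word is a match of letters, which says nothing of what binds there.

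**Figure D1:**
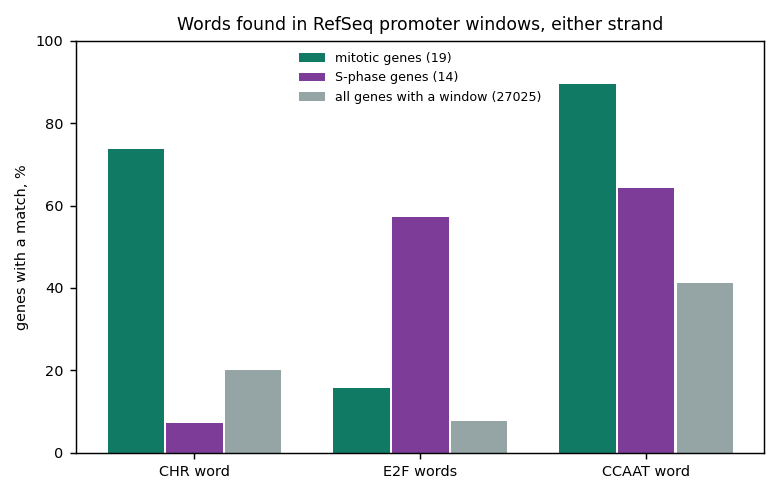
Share of genes (%, vertical axis) whose RefSeq promoter window held each word on either strand. The CHR word was found in 73.7% of the mitotic genes, 7.14% of the S-phase genes and 20.2% of all genes with a window.

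Total counts per library were 30745166 to 53374796, and the 40 genes took 0.123% to 0.289% of them. Counts of single genes ranged from 110 to 10785 per library, and all 40 passed the filter on low counts in every comparison. Fgf20 itself had 2.24 ± 0.729 CPM (counts scaled to library size, with TMM factors) in TRAP mut and 4.19 ± 0.979 CPM in TRAP het (SD, n = 8 each). In pre-TRAP it had 0.236 ± 0.0690 CPM in mut and 0.886 ± 0.584 CPM in het (SD, n = 4 each). Mut over het, its log2 fold change stood at -0.94 in TRAP (adjusted p = 0.188) and -1.75 in pre-TRAP (adjusted p = 0.837) by edgeR's quasi-likelihood test, and the labels do not say which part of the gene the mutant allele lacks. All 12 otic epithelium markers were detected in every library, with a summed level of 1065 to 1338 CPM in TRAP and 657 to 1053 CPM in pre-TRAP. The labels do not say whether pools came from separate litters, so p-values measure the spread between these pooled libraries. In such bulk RNA, fewer cycling cells and less RNA per cycling cell cannot be told apart.

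The 40 genes were lower in TRAP than in pre-TRAP RNA almost throughout. With edgeR's quasi-likelihood test over 24242 genes, 37 of 40 fell and none rose at an adjusted p under 0.05, where 31.2% of all genes fell and 27.9% rose. The median log2 fold change of TRAP over pre-TRAP was -0.73 over the 40 genes, -0.84 over the S-phase genes and -0.70 over the mitotic genes, beside -0.01 over all genes tested. The values ran from -1.27 for Ccne2 to -0.00 for Ube2c. Of the S-phase genes 16 of 17 fell, and of the mitotic genes 21 of 23. Within experiment 2 alone 30 of the 40 genes were called, all lower, where 22.3% of all genes were called lower, and within experiment 1 alone 33, all lower, where 25.3% of all genes were. Called over both experiments but in neither alone were Tpx2 and Cdca8.

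Summed over the 40 genes, levels were 1232 to 2193 CPM in TRAP mut, 1302 to 2187 CPM in TRAP het, 2359 to 2794 CPM in pre-TRAP mut and 2063 to 3064 CPM in pre-TRAP het. TRAP and pre-TRAP libraries overlapped in 35 of the 40 genes. In the other 5, Plk1, Kif23, Ttk, Ccne1 and Uhrf1, every TRAP library was below every pre-TRAP library, a pattern that 8.32% of all genes tested shared.

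**Figure D2:**
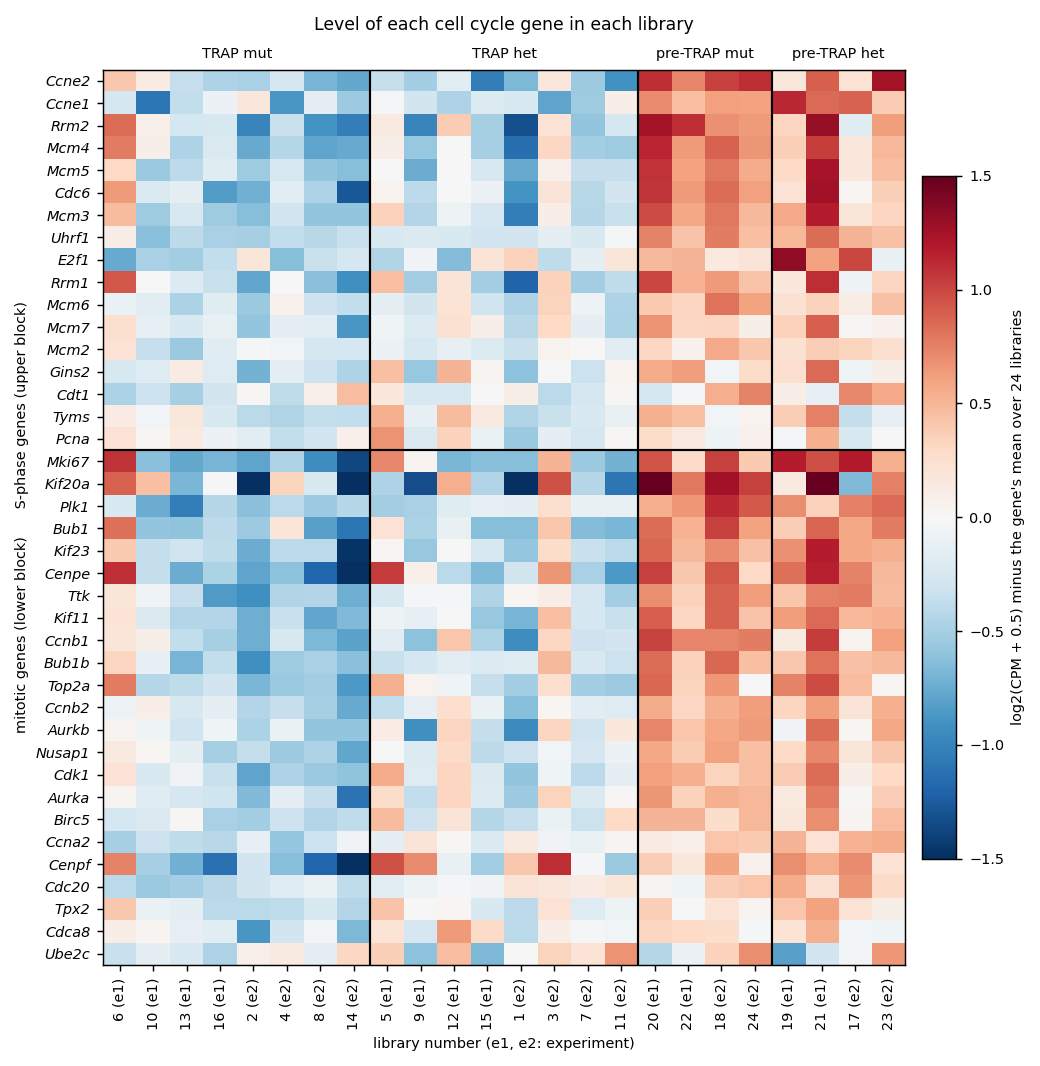
Level of each gene (rows) in each library (columns), as log2(CPM + 0.5) minus the gene's mean over 24 libraries, red for higher and blue for lower. The 8 pre-TRAP libraries on the right are red for most genes, and within TRAP mut library 6 is red for many genes where the other 7 are mostly blue.

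The switch into S phase held the deepest fall. Ccne2, which encodes cyclin E2, had a lowest, median and highest level of 4.86, 7.36 and 14.0 CPM in TRAP and of 11.9, 20.9 and 25.6 CPM in pre-TRAP. All but 1 of the 16 TRAP libraries were below the lowest pre-TRAP library, and the log2 fold change was -1.27 ± 0.16 (SE, edgeR adjusted p = 2.34e-07), or 2.41-fold lower. Ccne1, which encodes cyclin E1, had 2.84, 5.35 and 7.45 CPM in TRAP and 8.66, 10.7 and 14.9 CPM in pre-TRAP, with no overlap. This was a log2 fold change of -1.10 ± 0.14 (SE, edgeR adjusted p = 3.16e-07). E2f1, the transcription factor that activates genes of this step, fell by 0.84 ± 0.16 on the log2 scale (SE, edgeR adjusted p = 4.48e-05), and was not called in experiment 2 alone (-0.43, adjusted p = 0.124).

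Among the genes that load and fire replication origins, all 6 subunits of the MCM2 to MCM7 helicase fell. Mcm4, Mcm5 and Mcm3 had log2 fold changes of -0.99, -0.99 and -0.94, while Mcm6, Mcm7 and Mcm2 had -0.60, -0.50 and -0.47. The largest adjusted p among them was 0.000414, that of Mcm7 (edgeR), which was not called in experiment 2 alone (-0.35, adjusted p = 0.117). Mcm7 had a lowest, median and highest level of 36.4, 60.8 and 83.1 CPM in TRAP and of 68.2, 84.0 and 125 CPM in pre-TRAP, and 12 of 16 TRAP libraries were below the lowest pre-TRAP library. The loaders of the helicase, Cdc6 and Cdt1, fell by 0.97 ± 0.17 and 0.43 ± 0.12 (SE, adjusted p = 2.66e-05 and 0.00344 by edgeR), and Cdt1 was not called in experiment 1 alone (-0.20, adjusted p = 0.298). Gins2, a subunit of the GINS complex that activates the helicase, fell by 0.47 ± 0.12 (SE, edgeR adjusted p = 0.00136), but was not called in experiment 2 alone (-0.31, adjusted p = 0.116).

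All 3 genes of nucleotide supply fell. Rrm2, the small and cell-cycle-regulated subunit of ribonucleotide reductase, had a lowest, median and highest level of 25.6, 52.3 and 115 CPM in TRAP and of 56.9, 102 and 161 CPM in pre-TRAP. Its log2 fold change was -1.04 ± 0.19 (SE, edgeR adjusted p = 3.41e-05), although 5 of the 16 TRAP libraries reached into the pre-TRAP range. Rrm1, the large subunit, fell by 0.72 ± 0.18 (SE, edgeR adjusted p = 0.00134). Tyms, thymidylate synthase, fell by 0.31 ± 0.09 (SE, edgeR adjusted p = 0.00419) and lost its call without the experiment covariate (adjusted p = 0.061) and in experiment 2 alone (-0.17, adjusted p = 0.233).

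Pcna, the sliding clamp, was 1 of the 3 genes not called. It had 78.0, 108 and 184 CPM in TRAP and 98.6, 118 and 167 CPM in pre-TRAP, ranges that overlapped broadly, with a log2 fold change of -0.12 ± 0.11 (SE, edgeR adjusted p = 0.333). Reads of the pseudogene Pcna-ps2 made up 41.8% of those assigned to the pair, and this pseudogene had -0.14 ± 0.09 (SE, edgeR adjusted p = 0.195). Counting of near-identical copies could divide such reads either way, so the Pcna value is uncertain. Uhrf1, which guides maintenance DNA methylation behind the fork, was called. Its levels were 32.8, 41.6 and 54.5 CPM in TRAP and 68.5, 72.1 and 90.8 CPM in pre-TRAP, with no overlap and a log2 fold change of -0.88 ± 0.09 (SE, edgeR adjusted p = 1.50e-09).

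Cyclins and the kinase of mitotic entry fell together. Ccnb1, which encodes cyclin B1, fell by 0.95 ± 0.15 and Ccnb2, which encodes cyclin B2, by 0.70 ± 0.10. Cdk1, their catalytic partner, fell by 0.66 ± 0.10 and Ccna2, which encodes cyclin A2, by 0.53 ± 0.08 (SE, with adjusted p = 4.19e-06 or less for all 4 by edgeR). Cdk1 had a lowest, median and highest level of 51.5, 76.4 and 131 CPM in TRAP and of 95.7, 119.5 and 160 CPM in pre-TRAP, and 13 of 16 TRAP libraries were below the lowest pre-TRAP library. The pseudogenes Ccnb1-ps and Ccnb2-ps held 27.6% and 6.85% of the reads assigned to each pair. Ccnb1-ps had a log2 fold change of -0.98, beside -0.95 for Ccnb1, while Ccnb2-ps had 0.26 and was not called.

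Plk1, the polo kinase of spindle assembly and mitotic exit, had the smallest adjusted p of the 40 genes. It had a lowest, median and highest level of 9.97, 15.6 and 24.8 CPM in TRAP and of 26.9, 35.1 and 46.0 CPM in pre-TRAP. The ranges did not overlap, and the log2 fold change was -1.12 ± 0.10 (SE, edgeR adjusted p = 1.45e-10), or 2.17-fold lower. Aurka, the Aurora A kinase of the spindle poles, fell by 0.63 ± 0.13 (SE, edgeR adjusted p = 0.000121).

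The spindle checkpoint genes Bub1, Ttk and Bub1b fell by 1.02, 0.97 and 0.87. Bub1, a kinase that sits at kinetochores, had 3.74, 5.60 and 15.6 CPM as lowest, median and highest values in TRAP and 11.1, 14.1 and 17.9 CPM in pre-TRAP (adjusted p = 6.42e-05 by edgeR). All but 2 of the 16 TRAP libraries were below the lowest pre-TRAP library. The chromosomal passenger complex, which corrects faulty attachments, fell as well. Aurkb had -0.70, Birc5 -0.58 and Cdca8 -0.27, the last with an adjusted p of 0.0325 (edgeR). The call of Cdca8 was lost without library 5, 18, 19 or 21, without the filter on low counts and without the experiment covariate.

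All 4 kinesin genes fell. Kif23, a kinesin of the central spindle, had a lowest, median and highest level of 7.04, 15.7 and 27.0 CPM in TRAP and of 27.8, 31.8 and 46.9 CPM in pre-TRAP, with no overlap (log2 fold change -1.01 ± 0.14, SE, edgeR adjusted p = 7.85e-07). Kif11, which pushes spindle poles apart, and Cenpe, which carries chromosomes to the spindle equator, had -0.95 and -0.99. Cenpe was not called in experiment 1 alone (-0.80, adjusted p = 0.0618). Kif20a, a kinesin of cytokinesis, had -1.12 ± 0.32 (SE, edgeR adjusted p = 0.00346). It varied most of the 40 genes, from 3.11 to 22.0 CPM in TRAP and from 6.83 to 34.7 CPM in pre-TRAP. Only 6 of 16 TRAP libraries were below the lowest pre-TRAP library, and the call was lost in experiment 2 alone (adjusted p = 0.0946).

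Mki67, the widely used proliferation marker, had 13.1, 21.9 and 73.9 CPM in TRAP and 42.0, 67.2 and 79.2 CPM in pre-TRAP, with a log2 fold change of -1.14 ± 0.23 (SE, edgeR adjusted p = 0.000105). The TRAP maximum came from library 6 (mut) and stood above 6 of the 8 pre-TRAP libraries, while 13 TRAP libraries were below all of them. Top2a, the topoisomerase that untangles sister chromatids, fell by 0.74 ± 0.15 (SE, edgeR adjusted p = 9.84e-05). Of the spindle proteins Nusap1 and Tpx2 fell by 0.68 and 0.35. Cenpf, a kinetochore protein, had -0.51 ± 0.22 (SE, edgeR adjusted p = 0.0514) and was not called, but it was called by DESeq2's Wald test (adjusted p = 0.0373), without the filter on low counts (0.0106), with DESeq2's size factors (0.0463) and without library 2, 3 or 6 (0.0441, 0.0144 and 0.00375).

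Of the 2 genes of mitotic exit 1 was called. Cdc20, the activator of the anaphase-promoting complex, had 23.4, 31.4 and 39.5 CPM in TRAP and 33.1, 43.6 and 55.2 CPM in pre-TRAP (log2 fold change -0.48 ± 0.07, SE, edgeR adjusted p = 2.37e-06). Ube2c, the ubiquitin-conjugating enzyme that works with that complex, had 66.7, 109 and 170 CPM in TRAP and 60.3, 102 and 172 CPM in pre-TRAP. Its ranges lay over each other, and the log2 fold change was -0.00 ± 0.14 (SE, edgeR adjusted p = 0.995).

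**Figure D3:**
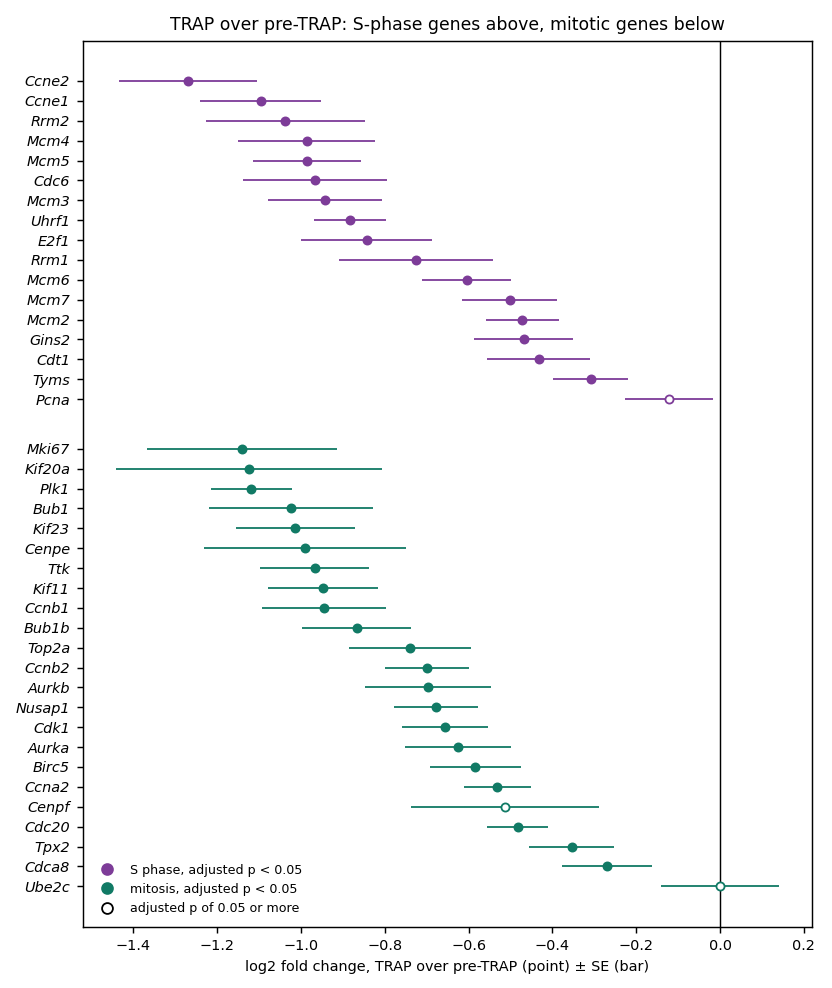
log2 fold change of TRAP over pre-TRAP for each gene (points) with its SE (bars), S-phase genes above and mitotic genes below. Filled points had an adjusted p under 0.05 by edgeR. Values ran from -1.27 (Ccne2) to -0.00 (Ube2c), and the 3 open points are Pcna, Cenpf and Ube2c.

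Other genes of the cycle, in lists that were set up with the 40 genes and share none of them, gave a mixed picture. Of 32 other replication genes 19 fell and 2 rose in TRAP (median -0.46), with thymidine kinase gene Tk1 at -1.45, the polymerase subunit Pold1 at -1.03, the histone chaperone subunit Chaf1a close behind and the checkpoint mediator Clspn at -0.98. Of 51 other mitotic genes 40 fell and 1 rose (median -0.62), led by the cytokinesis protein gene Anln at -1.41, the condensin subunit Ncapg2 at -1.27, Depdc1a at -1.26 and the spindle protein gene Tacc3 at -1.13. Of 22 regulators of the pocket protein, E2F, MuvB and NF-Y families 8 fell and 4 rose (median -0.14). The retinoblastoma gene Rb1 rose by 1.23, while the repressors E2f8 and E2f7 and the mitotic activator Foxm1 had -1.05, -0.93 and -0.85. Of 11 cyclins, kinases and inhibitors of the first gap phase 6 fell and 5 rose (median -0.60), with Ccnd2 at -2.68, Cdk6 at -2.27, Ccnd3 at -1.71 and Cdkn1c, an inhibitor of cyclin-dependent kinases, at -1.38. The shares of all genes that fell and rose, 31.2% and 27.9%, apply to these lists too.

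Markers of other cell types moved with the collection method. All 12 neuron markers rose in TRAP (median 2.56 on the log2 scale), with summed levels of 2830 to 5353 CPM in TRAP and 552 to 869 CPM in pre-TRAP. Of 13 mesenchyme markers 11 fell and 1 rose (median -2.08), with summed levels of 290.5 to 1313 CPM in TRAP and 1039 to 1527 CPM in pre-TRAP. All 9 erythroid markers fell (median -3.28), as did 7 of 7 endothelial, 6 of 7 macrophage and 4 of 6 cartilage markers. Prosensory markers rose in 9 of 10 cases, hair cell markers in 7 of 10 and otic epithelium markers in 9 of 12. Of all genes tested 27.9% rose and 31.2% fell. Schwann cell and glial markers had summed levels of 107.2 to 192.4 CPM in TRAP and 151.5 to 212.5 CPM in pre-TRAP. None of the neuron, mesenchyme or cartilage markers was at 0 in any library.

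With the mesenchyme level as a covariate, 3 of the 40 genes were called higher (Mki67, Cenpe and Cenpf) and 5 lower, where 8.14% of all genes were higher and 4.46% lower. The median over the 40 was then -0.29, with 8 values above 0. With the neuron level as a covariate, 7 were called higher and 2 lower, where 8.46% of all genes were higher and 9.60% lower. The median was then 1.00, with 32 values above 0. The covariate was the mean log2 level of the markers. For both cell types it did not overlap between TRAP and pre-TRAP libraries, so both fits extend each group beyond its own range. The summed mesenchyme levels did overlap, as library 6 (TRAP mut) had 1313 CPM and the pre-TRAP libraries had 1039 to 1527 CPM. The part of these cell types in the lower level of the 40 genes in TRAP cannot be told apart from the method in these fits.

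Between mut and het, none of the 40 genes passed the threshold. In TRAP, edgeR's quasi-likelihood test over 21577 genes called 0 of 40, where 0.0742% of all genes were called. DESeq2's Wald test called 1, Cdc20, and the share of all genes that it called is not given here. At an unadjusted p under 0.05 there were 8 of the 40, all of them mitotic and all lower in mut, where 1.98% of all genes were lower at that p. Mut over het, 37 of 40 genes had a log2 fold change below 0, where 11591 of the 21577 genes tested did. The 40 values come from the same libraries, so they are not separate observations. Their median was -0.20 (-0.09 over the S-phase genes and -0.29 over the mitotic genes), beside -0.02 over all genes tested. Mut and het libraries overlapped in all 40 genes, and the share of all genes tested that overlapped was not counted.

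Cdc20 had the smallest p. Its lowest, median and highest levels were 23.4, 26.3 and 32.2 CPM in TRAP mut and 30.7, 35.9 and 39.5 CPM in TRAP het. All 8 mut libraries were below the het mean, with means of 27.1 ± 3.01 CPM in mut and 35.8 ± 3.44 CPM in het (SD, n = 8 each). Within experiment 1 the 4 mut libraries had 23.4 to 26.1 CPM and the 4 het libraries 30.7 to 34.1 CPM, and within experiment 2 the mut libraries had 26.5 to 32.2 CPM and the het libraries 37.6 to 39.5 CPM, so the genotypes did not overlap within either experiment. How many of all genes tested showed such patterns was not counted. The log2 fold change was -0.42 ± 0.09 (SE, edgeR adjusted p = 0.0886). The adjusted p was 0.000238 by DESeq2, 0.0406 with the neuron level as a covariate and 0.0495 with all 24 libraries in 1 fit. Cdc20 also varied least of the 40 genes within TRAP, with an SD of 0.078 on the log2 scale after genotype and experiment were taken out, where the median over the 40 genes was 0.324. In RefSeq it overlaps Elovl1, and as the strand setting of the counting is not given in the sources used here, reads of the 2 genes may be mixed.

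Ccna2 had 18.7, 21.9 and 27.0 CPM as lowest, median and highest values in TRAP mut and 24.1, 27.8 and 32.2 CPM in TRAP het. Again all 8 mut libraries were below the het mean, and the log2 fold change was -0.34 ± 0.10 (SE, edgeR adjusted p = 0.640). Plk1 had 9.97, 14.9 and 17.9 CPM in TRAP mut and 14.4, 19.0 and 24.8 CPM in TRAP het, with 8 of 8 mut libraries below the het mean. Its log2 fold change was -0.39 ± 0.13 (SE, edgeR adjusted p = 0.860).

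Cenpf showed the greatest difference between genotypes in size but also a wide spread. It had 18.1, 34.4 and 93.7 CPM in TRAP mut and 37.6, 64.0 and 120 CPM in TRAP het, and the log2 fold change was -0.92 ± 0.30 (SE, edgeR adjusted p = 0.8294). The highest mut library, library 6, was above 6 of the 8 het libraries. With the mesenchyme level as a covariate Cenpf had -0.98 (adjusted p = 0.0101). Cdca8 and Birc5, both of the passenger complex, had -0.34 ± 0.14 and -0.30 ± 0.13 (SE, unadjusted p = 0.0253 and 0.0333, adjusted p = 1 for both by edgeR). Cdca8 had 29.9 to 59.6 CPM in TRAP mut and 41.8 to 86.3 CPM in TRAP het, and Birc5 had 57.9 to 83.9 CPM in TRAP mut and 61.7 to 115 CPM in TRAP het. Cdk1 and Aurka completed the 8, with -0.29 and -0.35.

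S-phase genes had values closer to 0, a difference between the phases that was not tested. The 6 MCM subunits had log2 fold changes of mut over het between -0.18 and 0.00, the nucleotide genes between -0.21 and -0.00, and Pcna had -0.06 ± 0.13 (SE, edgeR adjusted p = 1). E2f1 had the smallest p among them, with -0.33 ± 0.16 (SE, unadjusted p = 0.0586). The 3 positive values were those of Ccne2 (0.17), Kif20a (0.09) and Mcm4 (0.00), all within 1 SE of 0.

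Single libraries and settings moved these values. Without library 3 (het) the median over the 40 genes was -0.13, and without library 6 (mut) 17 genes instead of 8 had an unadjusted p under 0.05. Without library 2, 11, 12 or 16 that count was 5. The shares of all genes at that p in these fits are not given here, so whether the counts moved only in the 40 genes is not known. The median came to -0.32 with experiment 2 only and to -0.06 with experiment 1 only, and with the neuron level as a covariate it was -0.05, with 23 of 40 values below 0. Neuron markers summed to 3988 to 5352 CPM in TRAP mut and 2830 to 5353 CPM in TRAP het, and 11 of 12 had positive log2 fold changes of mut over het (median 0.12), none of them called. Mesenchyme markers summed to 369 to 1313 CPM in TRAP mut and 290.5 to 1011 CPM in TRAP het (median log2 fold change -0.12, none called). Of 10 prosensory markers 1 was called lower in mut (median -0.41), with summed levels of 659 to 785 CPM in TRAP mut and 631 to 901 CPM in TRAP het. Their part in the values of the 40 genes was not tested beyond these covariate fits.

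In pre-TRAP RNA no gene passed the threshold either. By edgeR, 0 of 40 genes were called between mut and het, where 0.00455% of all 21954 genes tested were called. DESeq2 also called 0. At an unadjusted p under 0.05 there were 0 of 40 with all 8 libraries, where 4.77% of all genes passed. There were 9 without library 21 and 4 without library 23. The shares of all genes in those 2 fits are not given here, and 4.77% does not apply to them. The median log2 fold change was 0.07, with 29 values above 0. Over all genes tested it was -0.03, and 10093 of 21954 were above 0. The median over the 40 genes was 0.20 in experiment 2 alone, -0.04 in experiment 1 alone, with 23 of 40 values below 0, and 0.18 without library 21. With all 8 libraries none of the 40 genes had a p below that of E2f1 (unadjusted p = 0.0727).

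E2f1 had 9.85, 10.2, 12.7 and 12.8 CPM in the pre-TRAP mut libraries and 8.15, 13.8, 18.3 and 23.0 CPM in the pre-TRAP het libraries, and the mut values lay inside the het range (log2 fold change -0.47 ± 0.24, SE, edgeR adjusted p = 0.837). Mcm6 had 80.4, 84.3, 97.9 and 113 CPM in mut and 69.3, 75.2, 81.3 and 87.3 CPM in het (0.25 ± 0.15, SE, edgeR adjusted p = 0.837). Cdc20 had 33.1, 35.8, 44.7 and 46.5 CPM in mut and 40.8, 42.5, 51.1 and 55.2 CPM in het, with a log2 fold change of -0.26 ± 0.15 (SE, edgeR adjusted p = 0.837). Its sign was that seen in TRAP, and 4 of 4 mut libraries were below the het mean. Ccna2, with 29.6, 30.7, 36.9 and 37.6 CPM in mut and 32.7, 40.2, 40.7 and 41.6 CPM in het, also had 4 of 4 mut libraries below the het mean (-0.21 ± 0.14, SE, edgeR adjusted p = 0.837). Mcm4 and Kif20a had 0.30 and 0.55 and were not called.

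Whether the genotype difference itself differed between TRAP and pre-TRAP was tested with an interaction term. By edgeR 0 of 40 genes were called, by DESeq2 also 0, and 1 gene, Plk1, was lower at an unadjusted p under 0.05, where 0.396% of all genes were. For Plk1 mut over het gave -0.39 on the log2 scale in TRAP and 0.14 in pre-TRAP, an interaction of -0.52 ± 0.20 (SE, unadjusted p = 0.0146, adjusted p = 1 by edgeR). In pre-TRAP it had 30.9, 33.1, 40.2 and 46.0 CPM in mut and 26.9, 34.4, 35.9 and 38.2 CPM in het. The interaction was below 0 for 38 of 40 genes, with a median of -0.27. Over all genes tested the median was 0.04, and 10456 of 24242 were below 0. The median over the 40 genes came to -0.55 with experiment 2 only, to -0.01 with experiment 1 only and to -0.17 without library 3.

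**Figure D4:**
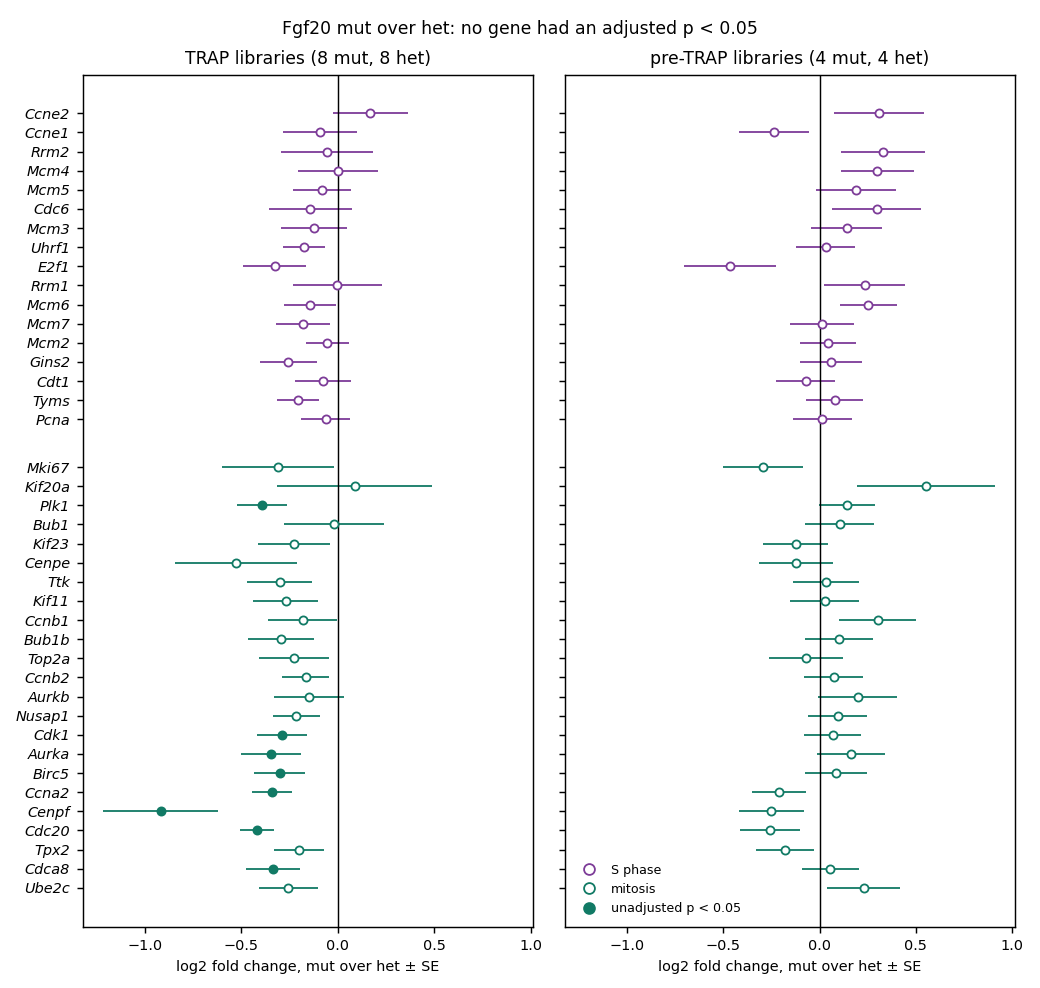
log2 fold change of mut over het (points) with its SE (bars) in TRAP (left panel) and pre-TRAP libraries (right panel). Filled points had an unadjusted p under 0.05, and none had an adjusted p under 0.05 by edgeR. In TRAP 37 of 40 points lie below 0 and in pre-TRAP 11 of 40.

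None of the other cycle lists held a gene called between genotypes. In TRAP their median log2 fold changes of mut over het were -0.17 for the 32 other replication genes, -0.20 for the 51 other mitotic genes, -0.06 for the 22 regulators and 0.02 for the 11 genes of the first gap phase. In pre-TRAP the same medians were 0.03, 0.04, -0.14 and -0.04. Values of the first gap phase list in TRAP ran from -0.55 for Ccnd1 to 0.18 for Cdkn2d. Ccnd1 had the smallest p of these lists in TRAP (-0.55 ± 0.11, SE, edgeR adjusted p = 0.0802). In pre-TRAP it had -0.49 ± 0.18 (SE, edgeR adjusted p = 0.837).

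The experiments differed in a few of the 40 genes. Among TRAP libraries, edgeR called 1 gene higher and 2 lower in experiment 2 than in experiment 1, where 14.1% of all genes were higher and 8.81% lower. Tyms had 76.4 ± 2.31 CPM in TRAP mut of experiment 2 and 102 ± 12.4 CPM in TRAP mut of experiment 1, and 83.1 ± 8.41 CPM and 122 ± 24.95 CPM in TRAP het of experiments 2 and 1 (SD, n = 4 each). Its log2 fold change of experiment 2 over 1 was -0.44 ± 0.11 (SE, edgeR adjusted p = 0.00502). Cdk1 fell by 0.43 ± 0.13 (adjusted p = 0.0185) and Cdc20 rose by 0.29 ± 0.09 (adjusted p = 0.0221). Without library 3 the number called was 8 (1 higher, 7 lower), and without library 9 it was 7 (1 higher, 6 lower). The shares of all genes in those fits are not given here. Cdc20 lost its call without library 8 or library 10.

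Among pre-TRAP libraries 2 genes were higher and 2 lower in experiment 2, where 9.74% of all genes were higher and 4.97% lower. Ube2c had 103, 135, 168 and 172 CPM in experiment 2 and 60.3, 78.6, 86.7 and 99.6 CPM in experiment 1, with no overlap (log2 fold change 0.84 ± 0.19, SE, edgeR adjusted p = 0.00903). Cdt1 had 16.6, 16.8, 18.9 and 19.1 CPM in experiment 2 and 9.27, 10.3, 11.0 and 12.1 CPM in experiment 1, again with no overlap (0.76 ± 0.16, SE, edgeR adjusted p = 0.00546). The share of all genes without overlap between the experiments was not counted. Tyms had 78.3, 92.6, 97.7 and 104 CPM in experiment 2 and 130, 138, 146 and 171 CPM in experiment 1 (-0.65 ± 0.15, SE, edgeR adjusted p = 0.0110). Both kinds of library thus had less Tyms RNA in experiment 2. Gins2 had -0.51 ± 0.16 (SE, edgeR adjusted p = 0.0499) and lost its call when any of 7 of the 8 libraries was left out. Without library 17 neither Tyms nor Gins2 was called.

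The genotype by experiment interaction in TRAP was called for 0 of 40 genes by edgeR and by DESeq2. At an unadjusted p under 0.05 there was 1 lower gene, Bub1b (-0.68 ± 0.31, SE, unadjusted p = 0.0409, adjusted p = 0.970 by edgeR), where 1.09% of all genes were lower. The median was -0.22, beside 0.03 over all genes tested. Over the 40 genes it was -0.06 without library 3 and -0.04 without library 6.

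Within TRAP the libraries differed in how much of the whole programme they held. Library 6 (mut) had the highest TRAP value for 15 of the 40 genes, library 3 (het) for 9, and library 5 (het) and library 12 (het) for 5 each, while library 14 (mut) had the lowest value for 13, library 1 (het) for 8 and library 2 (mut) for 7. Libraries 6, 5 and 3 also held the most mesenchyme RNA of the TRAP libraries, with 1313, 1011 and 787 CPM summed over its markers. Library 4 (mut) had 580 CPM and the other 12 libraries had 290.5 to 522 CPM. Library 12 (het) was among the latter, with 359.7 CPM. Its sum over the 40 genes was 2028 CPM, beside 2031 CPM in library 3. The part of mesenchyme RNA in the genes' levels was not tested gene by gene. Libraries 3, 4, 5 and 6 were left out in an alternative chosen after the data were seen. In it 38 of 40 genes were lower in TRAP than in pre-TRAP (median -0.88) and 0 were called between genotypes (median -0.20). With no library left out, 31.2% of all genes were called lower in TRAP than in pre-TRAP, and 0.0742% were called between genotypes in TRAP.

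The genes most variable within TRAP, after genotype and experiment were taken out, were Kif20a, Cenpe, Cenpf and Mki67, with SDs of 0.908, 0.709, 0.699 and 0.655 on the log2 scale. Cdc20, Ccna2 and Uhrf1 varied least, with 0.078, 0.160 and 0.172. The median SD was 0.319 for S-phase genes and 0.328 for mitotic genes.

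Some counts may include reads of other genes. In RefSeq 9 of the 40 genes overlap another protein-coding gene, namely Cdc20 with Elovl1, Ccna2 with Exosc9, Aurka with Cstf1, Nusap1 with Oip5, Kif20a with Brd8 and Cdc23, Mcm7 with Ap4m1, E2f1 with Necab3, Ccne2 with Ints8 and Gins2 with Gse1. Reads of such pairs cannot be told apart without the strand setting of the counting, so these values are uncertain to that extent. Tyms-ps held 11.2% of the reads assigned to it and Tyms.

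**Figure D5:**
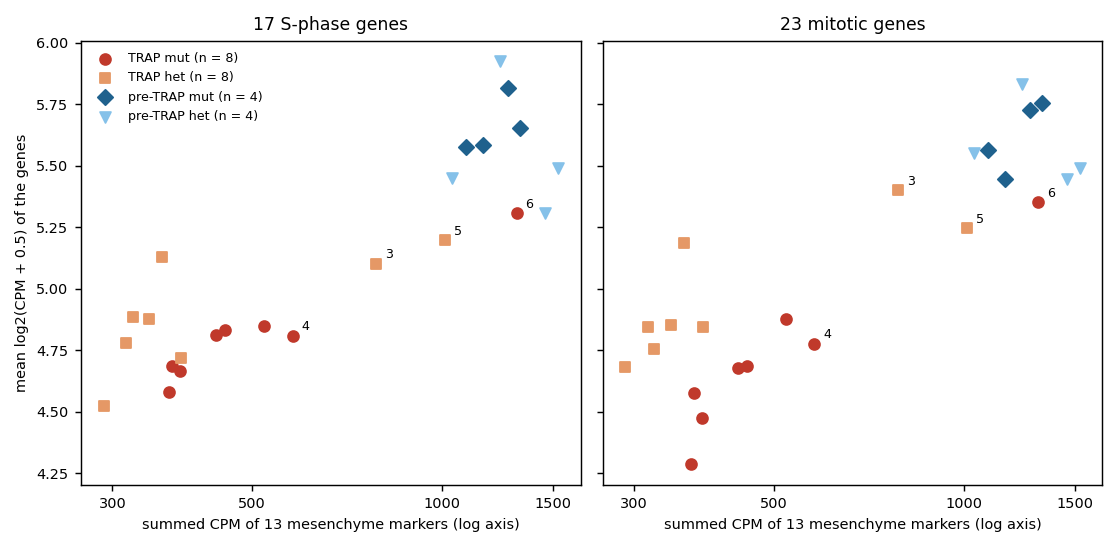
Mean log2(CPM + 0.5) of the S-phase genes (left) and mitotic genes (right) in each library, against the summed CPM of 13 mesenchyme markers on a log axis. On the horizontal axis TRAP library 6, at 1313 CPM, lies within the range of the 8 pre-TRAP libraries (1039 to 1527 CPM). TRAP libraries 3 and 5, at 787 and 1011 CPM, lie nearest below that range.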

How the data were processed

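PolyA RNA was made into libraries with the Clontech SMARTer kit, per the labels' protocols, and STAR, DESeq2 and the build GRCm38.p5 are named in the submitters' processing notes. For versions, counting tool and strand setting, nothing is given in the sources used here. The authors deposited 1 table of raw read counts per gene for 24 libraries, and 672 of its genes have no symbol. From these counts edgeR 4.0.16 (R 4.3.3) gave TMM factors, a filter on low counts (filterByExpr, minimum count 10), the quasi-likelihood test with experiment as a covariate, and Benjamini-Hochberg adjustment over all genes tested, with calls at an adjusted p under 0.05. The SE of a log2 fold change was its size divided by the square root of F. Levels are CPM with TMM factors over the genes kept for all 24 libraries, and log2 levels add 0.5 CPM. Gene lengths were not used, so levels are not compared between genes. The fits were tested on simulated data with the same spread setting for all genes. Those data left out the unequal spread of the 40 genes and the differences that genes share within a library. Alternatives were DESeq2 1.42.0, its size factors, no filter, no covariate, 1 experiment at a time, a joint fit of all libraries, marker levels as covariates, and leaving out each library. The 40 genes, the other gene lists and the marker lists were chosen with earlier results of these data known. Genes shown by library were those called with the largest change (up to 8 in a direction), or the 6 with the smallest p where none was called, and 1 gene per role, that with the highest mean CPM. Of other lists up to 4 called genes were named, those with the largest change. Between genotypes, where no other cycle gene was called, Ccnd1 was named for its smallest p and Cdkn2d as the other end of its list.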

Additional observations from a re-analysis of the deposited data

Results flagged for a closer look

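A library was marked where its value stood apart from the others of its group by more than Dixon's 95% critical value. Of 160 groups of libraries tested, 20 were marked, in 18 genes, and chance marks about 1 in 20.

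Library 6 (TRAP mut) gave 13 of the 20, each the highest of 8. It had 73.9 CPM of Mki67, where the next library had 24.8 CPM. It had 211 CPM of Top2a (next 100.3), 27.0 CPM of Kif23 (next 16.5), 62.7 CPM of Cenpe (next 22.4), 93.7 CPM of Cenpf (next 45.4) and 52.8 CPM of Tpx2 (next 37.1). Among S-phase genes it had 61.0 CPM of Mcm3 (next 37.0), 57.1 CPM of Mcm4 (next 35.3), 66.1 CPM of Mcm5 (next 47.2), 97.7 CPM of Rrm1 (next 50.6) and 115 CPM of Rrm2 (next 68.0). It also had 14.4 CPM of Cdc6 (next 8.27) and 54.5 CPM of Uhrf1 (next 40.3). This library also had the highest sum of mesenchyme markers among TRAP libraries, 1313 CPM, whose part in these values was not tested.

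Among the other TRAP libraries, library 2 (mut) had the highest E2f1 of its group, 10.2 CPM (next 7.34), and library 3 (het) the highest Bub1b, 27.2 CPM (next 17.3). Among pre-TRAP mut libraries, library 20 had the highest Ccnb1, 129 CPM (next 109), and library 18 the lowest Birc5, 99.97 CPM (next 117.3). Among pre-TRAP het libraries, library 21 had the lowest Ccna2, 32.7 CPM (next 40.2), and the highest Bub1b, 34.3 CPM (next 27.2), and Uhrf1, 90.8 CPM (next 72.6).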

How the results depend on the processing

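No paired analysis was possible because each library has its own number and the groups share none. Between mut and het in TRAP, 1 gene instead of 0 was called by DESeq2, by the neuron covariate and by the fit of all 24 libraries (Cdc20 each time). The mesenchyme covariate also gave 1 call (Cenpf). Shares of all genes called in these 4 fits are not given here, so the single calls cannot be set against them. Leaving out 1 library gave 0 calls and medians of -0.26 to -0.13 in TRAP, and 0 calls and medians of 0.04 to 0.18 in pre-TRAP. In pre-TRAP 9 genes had an unadjusted p under 0.05 without library 21 and 4 without library 23. The shares of all genes at that p in those fits are not given here. With each experiment fitted by itself, pre-TRAP medians came to 0.20 (experiment 2) and -0.04 (experiment 1). For TRAP over pre-TRAP, leaving out 1 library gave 36 to 38 calls and medians of -0.82 to -0.68. With all libraries 31.2% of all genes were called lower and 27.9% higher. With the mesenchyme covariate 8 genes were called (median -0.29), and the log2 fold change was above 0 for 8 of the 40. Among these, of the genes followed singly, were Bub1 (0.28), Cenpe (0.93), Cenpf (1.29), Mki67 (0.79), Pcna (0.06) and Top2a (0.33). With the neuron covariate 9 were called (median 1.00), and the log2 fold change was above 0 for 32 of the 40. Among these, of the genes followed singly, were Aurka (1.59), Birc5 (0.89), Bub1 (2.30), Bub1b (0.92), Ccne2 (2.53), Cdk1 (1.00), Cenpe (1.69), Cenpf (1.22), Gins2 (1.30), Kif20a (5.64), Kif23 (1.00), Mcm7 (1.07), Mki67 (0.71), Pcna (0.96), Rrm2 (3.61), Top2a (0.44), Tyms (0.42) and Ube2c (2.27). The cause was not tested. For genotype by method, the median was -0.55 for experiment 2 and -0.0066 for experiment 1, and -0.40 to -0.17 with 1 library left out, with 0 calls. Between experiments, TRAP gave 5 calls without the filter and 7 without the 4 libraries rich in mesenchyme RNA, all of them lower in experiment 2. In the main fits 14.1% of all genes were higher and 8.81% lower in TRAP, and 9.74% higher and 4.97% lower in pre-TRAP. Shares of all genes in the altered fits are not given here. With 1 library left out, TRAP gave 2 to 8 calls (medians -0.31 to -0.13) and pre-TRAP 2 to 6 (medians -0.24 to -0.04). The genotype by experiment term gave 0 calls and medians of -0.34 to -0.04. Of 1740 alternatives for 67 results on single genes, 1674 either kept their direction and their side of the threshold or changed direction without a call in either fit. An example of the latter is Ube2c in TRAP over pre-TRAP, with -0.00 in the main fit and 0.20 in experiment 1 alone. Counting error alone, if Poisson, comes to 0.138 on the log2 scale at the lowest count of the 40 genes (110), and for Cdc20 to 0.0326 to 0.0565, beside its SD of 0.078 within TRAP.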
